A study of Mus musculus with 6 samples.

Results

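The genes described here are 42 autophagy and lysosome genes in the livers of fasted mice with and without Creb3l3. They were chosen by name, as genes of autophagosome formation, cargo receptors, lysosomal membrane proteins, lysosomal enzymes and the regulator Tfeb. The arrays carried 82 probes for these genes among 45281 probes in all, 74 under the current symbols and 8 under older ones, and 2 of the genes, Lipa (listed as Lip1) and Tfeb (listed as Tcfeb), were on the arrays only under an older symbol. Of the 42 genes, 24 belong to autophagy, 17 to the lysosome, and Tfeb is the regulator. The series compared livers of 3 wild-type mice with livers of 3 Creb3l3 KO mice on Illumina WG-6 bead arrays, 1 array per mouse. All 6 mice were male littermates on a C57BL/6 background, ate normal chow and had been without food for 24 h, so that no fed liver is in the comparison and fasting is shared by both groups. Age and the way in which Creb3l3 was disrupted are not given in the sources used here.

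Autophagy is the process by which a cell wraps part of its own contents in a double membrane, the autophagosome, and delivers it to the lysosome for breakdown. Kinases of the ULK family start the process, a lipid kinase complex around Beclin 1 marks the growing membrane, and a chain of conjugating enzymes attaches proteins of the ATG8 family (the LC3 and GABARAP proteins) to it, which then catch cargo receptors such as p62. The lysosome supplies acid proteases, lipases, glycosidases and the membrane that holds them. In the fasted liver autophagy releases amino acids and breaks down lipid droplets, glycogen and organelles, and TFEB is a transcription factor known for activating many lysosomal and autophagy genes during starvation. CREB3L3, also called CREB-H, is a membrane-bound transcription factor of hepatocytes that is released by proteolysis and is known for its part in the hepatic response to fasting.

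The arrays were not of equal quality. Between 15504 and 16224 probes were detected on the wild-type arrays (detection p under 0.05), against 11846, 15867 and 4302 on knockout replicates 1, 2 and 3. Knockout replicate 3 detected only 7 of the 24 autophagy genes and 7 of the 17 lysosome genes, where every wild-type array detected 22 and 16. It was therefore left out of the values given below unless all 6 arrays are named, which leaves 3 wild-type and 2 knockout arrays. Creb3l3 itself read 1201, 949 and 929 signal units in wild type and 148, 283 and 87.9 in the knockout, and fell by 2.32 ± 0.15 on the log2 scale (SE), or 4.99-fold (limma, adjusted p = 0.00271). Hepatocyte markers summed to between 126583 and 133454 units of normalized signal on the wild-type arrays and to 121986 and 120407 on knockout replicates 1 and 2, and the tissue is labelled as liver in all samples. Red blood cell markers summed to 9257 units on knockout replicate 1, against 21489 to 26238 in wild type and 23320 on knockout replicate 2, and their part in the values of knockout replicate 1 was not tested.

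No autophagy or lysosome gene passed the test. Of the 42 genes, 38 were detected on at least 3 of the 5 arrays and tested, 22 of autophagy and 16 of the lysosome. All 38 were detected on every wild-type array and on knockout replicate 2, while the brightest probes of 5 (Atg9a, Atg4b, Gabarapl2, Mcoln1 and Ctsd) were not detected on knockout replicate 1. Atg4c, Bnip3, Gla and Tfeb were not tested, and Tfeb was not detected on any array. With limma, 0 of the 38 genes were called at an adjusted p under 0.05, against 7 of 10055 genes called higher (0.0696%) and 27 called lower (0.269%) over the whole array. At an unadjusted p under 0.05, 1 of the 38 was higher in the knockout, Ctss (background 4.95%), and 4 were lower, Ulk2, Wipi1, Mcoln1 and Lipa (background 7.02%). The 95% confidence interval of the change lay within 2-fold in either direction for 35 of the 38 genes. It reached beyond 2-fold lower for Atg9a, Mcoln1 and Lipa and beyond 2-fold higher for 0 genes. In bulk liver, fewer cells of a type and less RNA per cell cannot be told apart.

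**Figure D1:**
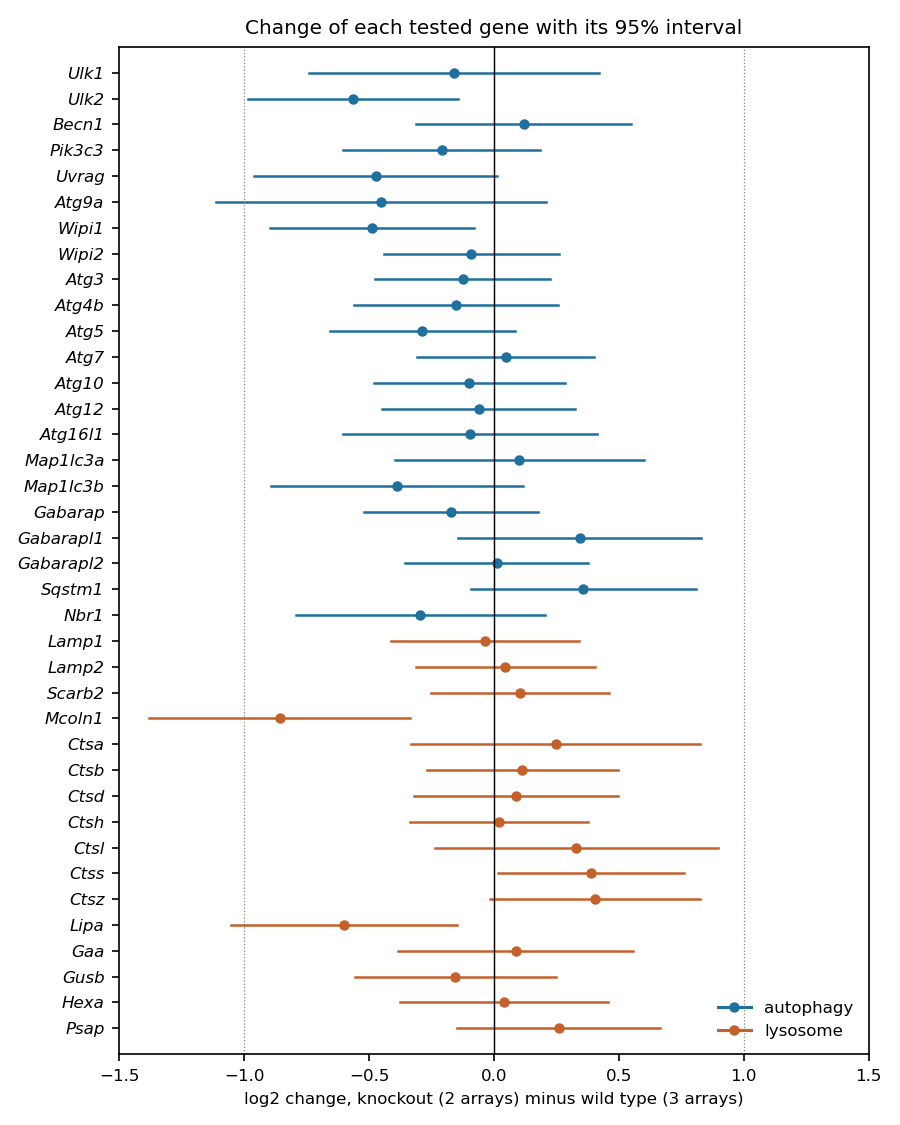
Change of the 38 tested genes on the log2 scale, knockout (2 arrays) minus wild type (3 arrays), with points for the estimates and bars for the 95% confidence intervals, and dotted lines at 2-fold in either direction. Most intervals span 0, and the 2 lowest estimates are Mcoln1 at -0.86 and Lipa at -0.60.

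The medians of the 22 autophagy genes and the 16 lysosome genes tested lay on different sides of the median of all genes. Of the 22 autophagy genes 16 were below 0 (52.2% of all genes tested were), and their median log2 change was -0.14. Of the 16 lysosome genes 4 were below 0, and their median was 0.09, with the median of all 10055 genes at -0.01. On knockout replicate 1 the medians, as differences from the wild-type mean, were -0.14 for autophagy, 0.09 for the lysosome and -0.06 for all genes, and on knockout replicate 2 they were -0.09, 0.06 and 0.03. The medians of the single wild-type arrays lay between -0.03 and -0.01 for autophagy and between -0.01 and 0.05 for the lysosome. The groups did not overlap, lower in the knockout, for 9 of 22 autophagy genes and 2 of 16 lysosome genes (15.3% of all genes), and, higher in the knockout, for 0 of 22 and 3 of 16 (14% of all genes). These are descriptions of 2 lists of genes, and the difference between the lists was not tested. Over 29 other autophagy genes the median was 0.03, also above that of all genes. It was 0.02 over 31 other lysosomal hydrolases and cofactors and 0.10 over 30 other genes of the lysosomal membrane, pump and sorting. Among genes with a mean log2 level of 10 or more the order was reversed, at 0.34 for 3 autophagy genes and 0.03 for 6 lysosome genes.

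Part of that contrast depended on which arrays and which scaling were used. With all 6 arrays the median of all genes moved to -0.25, and the medians became -0.47 for autophagy and -0.17 for the lysosome, so that the lysosome genes were then also below 0 but stood 0.08 above all genes. Of the 38 genes 29 were then below 0, against 70.2% of all genes, and at an unadjusted p under 0.05 there were 2 lower (background 2.98%) and 0 higher (background 0.649%). Under median scaling of the 5 arrays all genes stood at -0.44, autophagy at -0.68 and the lysosome at -0.59, which put the lysosome genes at -0.14 relative to all genes. The lysosome median was above the autophagy median in 17 of 17 alternatives, by between 0.09 and 0.29, and the autophagy median was below that of all genes in 17 of 17, while the lysosome median was below it in 1 of 17, median scaling. These alternatives are not independent. A change of variance model leaves every estimate as it was, and a block for replicate number on all 6 arrays repeats the estimates without it. The blocks on 5 arrays gave 0.29 and 0.21, as did leaving out wild-type replicate 3 or 2.

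**Figure D2:**
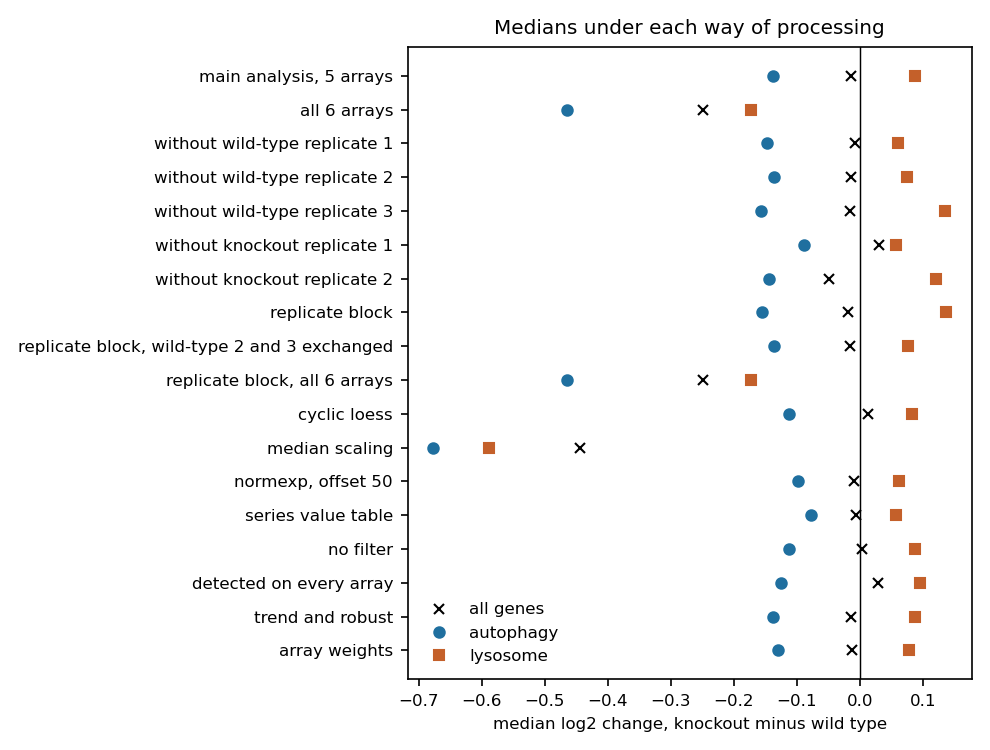
Median log2 change (horizontal axis) of all genes (crosses), the autophagy genes (circles) and the lysosome genes (squares) in the main analysis and 17 alternatives (rows). The lysosome median lies right of the autophagy median in every row, but left of 0 with all 6 arrays (with or without the replicate block) and under median scaling.

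Promoters are shown for the genes whose start regions hold the motif known from TFEB targets or the cAMP response element, the motif known from the CREB family. RefSeq's promoter table (GRCm38.p6) held 35 of the 42 genes, with 250 bases before each start, and both motifs read the same on either strand. The letters TCACGTGA, the core of the longer TFEB motif, were in 4 of 15 lysosome promoters (Mcoln1, Ctsa, Ctsd and Gla) and 1 of 19 autophagy promoters (Atg3), against 1.12% of the 27025 genes of the table. The shorter CACGTG, which those letters contain, was in 7 of 15 and 4 of 19, against 8.09%, and the full TFEB motif, TCACGTGA with a G before it and a C after it, was in 0 of the 35, against 0.37%. The letters TGACGTCA, the cAMP response element, were in 1 of 19 autophagy promoters (Atg5) and 1 of 15 lysosome promoters (Gusb), against 2.03%. By the positions given below, both of these matches begin just before the start and run past it. The stretches around these motifs follow, 5′ to 3′ on the strand of the gene with the motif in capitals.
Ctsa, motif at -13, chr2:164833713-164833772, plus strand: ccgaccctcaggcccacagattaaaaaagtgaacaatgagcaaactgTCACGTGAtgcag
Ctsd, motif at -99, chr7:142387893-142387952, minus strand: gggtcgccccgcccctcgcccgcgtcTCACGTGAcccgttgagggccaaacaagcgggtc
Mcoln1, motif at -46, chr8:3500447-3500506, plus strand: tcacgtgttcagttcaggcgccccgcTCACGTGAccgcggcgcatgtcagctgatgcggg
Gla, motif at -195 and a second one at -228 that is not shown, chrX:134601167-134601226, minus strand: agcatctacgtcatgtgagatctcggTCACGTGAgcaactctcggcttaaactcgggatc
Atg3, motif at -72, chr16:45158731-45158790, plus strand: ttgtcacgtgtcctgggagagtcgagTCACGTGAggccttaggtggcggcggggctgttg
Gusb, motif at -4, chr5:130003046-130003075, minus strand: tagatgtgaggcaggcagcggcTGACGTCA
Atg5, motif at -1, chr10:44268316-44268345, plus strand: agcgcttgccacgtggtcttggTGACGTCA

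The tested genes with TCACGTGA did not share a direction in the arrays, while both genes with TGACGTCA were below 0. Among the 4 tested genes with TCACGTGA, the log2 changes were -0.86 for Mcoln1, -0.13 for Atg3, 0.25 for Ctsa and 0.09 for Ctsd. The genes with TGACGTCA had changes of -0.29 (Atg5) and -0.15 (Gusb), and neither passed the test. A match of letters describes the promoter and shows no binding.

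Both kinases that start autophagy had estimates below 0, and neither passed the test. The normalized log2 level of Ulk2 was 6.55, 6.19 and 6.31 on the wild-type arrays and 5.65 and 5.92 on the knockout arrays, a change of -0.57 ± 0.18 (SE; adjusted p = 0.325). Both knockout arrays lay below the 3 wild-type arrays. The dimmer of the gene's 2 probes did not show this, since it was not detected on knockout replicate 1 and stood 0.12 above the wild-type mean on knockout replicate 2. The change of Ulk2 with all 6 arrays was -0.996 (adjusted p = 0.653), and its brightest probe was not detected on knockout replicate 3. Ulk1, the better known kinase of the pair, read 7.67, 8.09 and 7.64 in wild type and 8.004 and 7.28 in the knockout, a change of -0.16 ± 0.25 (adjusted p = 0.815). The knockout arrays of Ulk1 lay inside and below the wild-type range, and its other probe gave -0.44.

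In the Beclin 1 lipid kinase complex, the changes of the 3 genes were 0.12 (Becn1), -0.21 (Pik3c3) and -0.47 (Uvrag). Uvrag, a Beclin 1 partner in autophagosome and endosome maturation, read 7.21, 7.11 and 7.07 in wild type and 6.34 and 6.98 in the knockout, a change of -0.47 ± 0.21 (adjusted p = 0.424). Knockout replicate 1 was far below the wild-type arrays and knockout replicate 2 just below them. Pik3c3, the catalytic lipid kinase VPS34, read 6.70, 6.66 and 6.64 in wild type and 6.28 and 6.64 in the knockout, a change of -0.21 ± 0.17 (adjusted p = 0.638). Here too the distance came from knockout replicate 1. Becn1, the scaffold of the complex, had an interval from -0.31 to 0.55.

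Of the genes for growth of the membrane, Wipi1, which binds the lipid made by VPS34, read 6.83, 6.54 and 6.43 in wild type and 6.15 and 6.07 in the knockout. Both knockout arrays were below the wild-type arrays, the change was -0.49 ± 0.18 (adjusted p = 0.362), and the other probes of the gene gave 0.01 and, from a probe not detected on knockout replicate 1, -0.41. The change of Wipi1 with all 6 arrays was -0.11, and its brightest probe was not detected on knockout replicate 3. Atg9a, the membrane protein of the vesicles that seed the autophagosome, read 5.60, 5.21 and 5.43 in wild type and 4.47 and 5.46 in the knockout, a change of -0.45 ± 0.29 (adjusted p = 0.541). Knockout replicate 2 lay within the wild-type range, and the low value on knockout replicate 1 was not detected above background. The brightest probe of Wipi2 gave -0.09, and its other probes gave -0.43 and 0.46.

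Of the 8 genes of the conjugation step 7 were tested and 6 of these were below 0. Their changes ran from -0.29 (Atg5) to 0.05 (Atg7, the activating enzyme), with a median of -0.10. All 7 were below 0 with all 6 arrays, with a median of -0.70 against -0.25 for all genes. The brightest probes of Atg4b, Atg7, Atg10, Atg12 and Atg16l1 were not detected on knockout replicate 3. The part of these undetected values in that median was not tested. Atg5, part of the complex that places ATG8 proteins on the membrane, read 9.14, 9.35 and 9.30 in wild type and 9.04 and 8.91 in the knockout, a change of -0.29 ± 0.16 (adjusted p = 0.496). The groups did not overlap, and its 3 probes gave between -0.31 and -0.24. Its partners Atg12 and Atg16l1 gave -0.06 and -0.10, and the transfer enzymes Atg3 and Atg10 gave -0.13 and -0.10. Atg4b, the protease that primes ATG8 proteins, read 4.60, 4.87 and 4.60 in wild type and 4.41 and 4.67 in the knockout, with the groups overlapping and a change of -0.15 ± 0.18 (adjusted p = 0.747).

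The ATG8 family, whose members coat the autophagosome, held values on both sides of 0. Map1lc3b, the gene of the autophagosome marker LC3B, read 8.01, 8.59 and 8.08 in wild type and 7.99 and 7.69 in the knockout, a change of -0.39 ± 0.22 (adjusted p = 0.501). One knockout array lay just below the lowest wild-type array and the other further down, while wild-type replicate 2 stood above the rest. Gabarapl1 read 10.65, 10.56 and 10.48 in wild type and 11.22 and 10.59 in the knockout, a change of 0.34 ± 0.21 (adjusted p = 0.532). Its distance came from knockout replicate 1, and knockout replicate 2 lay within the wild-type range. Gabarap, Gabarapl2 and Map1lc3a gave -0.17, 0.01 and 0.10.

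Among the cargo receptors, Sqstm1, the gene of p62, which is itself degraded by autophagy, read 10.79, 10.91 and 10.68 in wild type and 10.90 and 11.40 in the knockout. Knockout replicate 1 lay within the wild-type range and knockout replicate 2 above it, for a change of 0.36 ± 0.20 (adjusted p = 0.493). Nbr1, a receptor related to p62, read 6.00, 6.39 and 6.48 in wild type and 6.22 and 5.77 in the knockout, a change of -0.29 ± 0.22 (adjusted p = 0.596). Its dimmer probe was not detected on knockout replicate 1, where it was at least 1.31 below the wild-type mean when set at the lowest detected signal of that array, and it stood at -0.54 on knockout replicate 2. Bnip3, a receptor for mitochondria, was not tested.

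**Figure D3:**
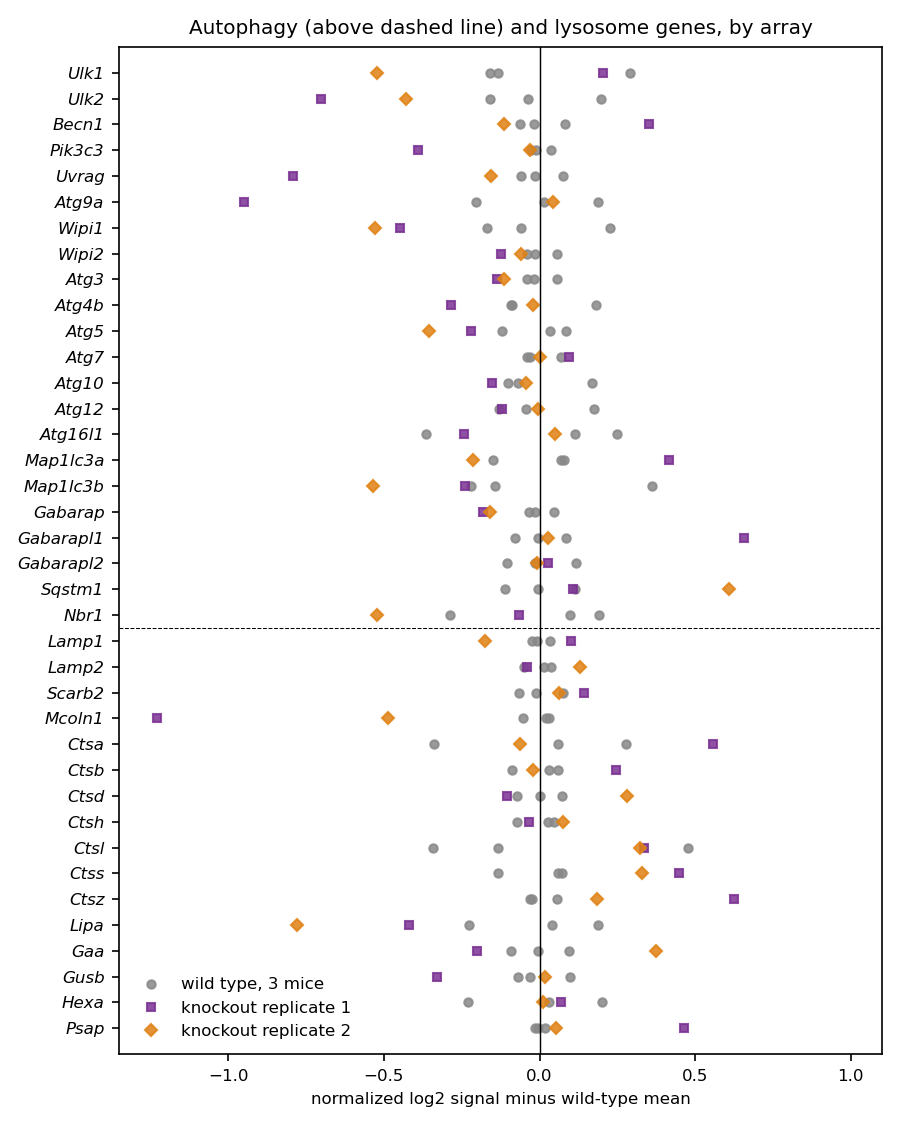
Normalized log2 signal of each tested gene on each array, as the difference from its wild-type mean, with wild-type arrays as grey circles, knockout replicate 1 as purple squares and knockout replicate 2 as orange diamonds. Both knockout arrays lie left of the 3 wild-type arrays for 11 of the 38 genes (15.3% of all genes), among them Ulk2, Wipi1, Mcoln1 and Lipa. Both lie right of them for 3 (14% of all genes), Ctss, Ctsz and Psap.

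At the lysosomal membrane the lowest estimate was that of Mcoln1, the gene of the calcium channel TRPML1. It read 5.82, 5.83 and 5.75 on the wild-type arrays and 4.57 and 5.31 on the knockout arrays, a change of -0.86 ± 0.23 (adjusted p = 0.241), the smallest adjusted p of the 38 genes. Both knockout arrays lay below a narrow wild-type range, but the probe was detected on only 1 of them, knockout replicate 2, and the deposited signals were dim, at 143, 131 and 127 in wild type and 98.2 and 121 in the knockout. Among the 4442 genes with a mean log2 level below 6, the class that holds Mcoln1, the median difference of knockout replicate 1 from the wild-type mean was -0.19, and its part in the value of Mcoln1 was not tested. With all 6 arrays the change was -0.99 (adjusted p = 0.653), and the probe was not detected on knockout replicate 3 either. The structural membrane glycoproteins showed no such distance, with Lamp1 at -0.04 and Lamp2 at 0.05. The 6 tested probes of Lamp2 ranged from -0.50, at a probe not detected on knockout replicate 1, to 0.13. Scarb2, the receptor that carries glucocerebrosidase to the lysosome, read 8.28, 8.33 and 8.42 in wild type and 8.48 and 8.41 in the knockout, an overlap with a change of 0.10 ± 0.15 (adjusted p = 0.806).

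The 7 cathepsins, the lysosomal proteases, were all above 0, with changes from 0.02 (Ctsh) to 0.40 (Ctsz) and a median of 0.25, and none passed the test. With all 6 arrays 5 of the 7 were below 0 and the median was -0.13, which was 0.12 above the median of all genes, against 0.26 above it with 5 arrays. Ctss, a protease of antigen-presenting cells, read 5.72, 5.53 and 5.73 in wild type and 6.11 and 5.99 in the knockout, a change of 0.39 ± 0.16 (adjusted p = 0.398). Both knockout arrays were above the wild-type arrays after normalization. The deposited signals of Ctss were dim, at 138, 119 and 127 in wild type and 113 and 153 in the knockout. Before normalization knockout replicate 1 was thus below every wild-type array. Relative to the median of all genes, Ctss stood at 0.40, at 0.41 under median scaling and at 0.11 with all 6 arrays. Its probe was not detected on knockout replicate 3. Ctsz, an exopeptidase, read 9.50, 9.42 and 9.41 in wild type and 10.07 and 9.63 in the knockout, a change of 0.40 ± 0.18 (adjusted p = 0.429), and its other probe gave 0.46. Both knockout arrays were again above the wild-type arrays. Ctsl, Ctsa and Ctsb gave 0.33, 0.25 and 0.11. Ctsd gave 0.09 from a probe near background, whose signals ran from 98.8 to 113 on these 5 arrays.

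Markers of several other cell types of the liver also had medians above 0 on these 5 arrays. Of the 14 markers of Kupffer cells, the macrophages of the liver, 12 were tested and 9 of these were above 0, with a median of 0.13. Their changes ranged from -0.29 (Cd163) to 0.95 (Marco), and Cd5l and Fcgr1 were not detected on any array. Their summed normalized signal was 2412, 2452 and 2826 on the wild-type arrays and 2712 and 2991 on the knockout arrays, so that the groups overlapped. Of the 12, 7 were below 0 with all 6 arrays, and the median was -0.45 against -0.25 for all genes. The medians with 5 arrays were 0.18 over 7 endothelial markers, 0.36 over 3 bile duct markers and 0.53 over 3 lymphocyte and neutrophil markers. Of the 7 endothelial markers 4 were above 0 and 3 below. Their summed signal was 1741 and 2049 on the knockout arrays, against 1996 to 2220 in wild type. The bile duct list named 6 genes, of which Krt19, Krt7 and Epcam were not detected on any array, and the lymphocyte and neutrophil list 12. With all 6 arrays the 3 medians were -0.37, -0.64 and 0.21. The part of these cells in the values of Ctss and Ctsz was not tested.

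Among the other lysosomal enzymes Lipa stood apart. Lipa, the acid lipase that releases fatty acids and cholesterol from lipids delivered to the lysosome, read 10.37, 10.10 and 10.52 in wild type and 9.91 and 9.55 in the knockout. Both knockout arrays were below the wild-type arrays, the change was -0.60 ± 0.20 (adjusted p = 0.333), and the second probe gave -0.46 ± 0.21. The brightest probe had deposited signals of 1834, 1210 and 1577 on the wild-type arrays against 417, 1019 and 98.3 on the 3 knockout arrays. With all 6 arrays the change was -0.56 (adjusted p = 0.653). The estimate was below 0 in 17 of 17 alternatives, which are not all independent, from -1.36 to -0.42. The glycosidases Gaa, Hexa and Gusb gave 0.09, 0.04 and -0.15. Gusb read 7.68, 7.64 and 7.81 in wild type and 7.38 and 7.73 in the knockout, with the groups overlapping (adjusted p = 0.735). Psap, the precursor of the saposins that present lipids to lysosomal enzymes, read 10.99, 11.01 and 10.97 in wild type and 11.45 and 11.04 in the knockout, a change of 0.26 ± 0.18 (adjusted p = 0.569). Knockout replicate 2 was only just above the wild-type arrays, and knockout replicate 1 well above them.

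**Figure D4:**
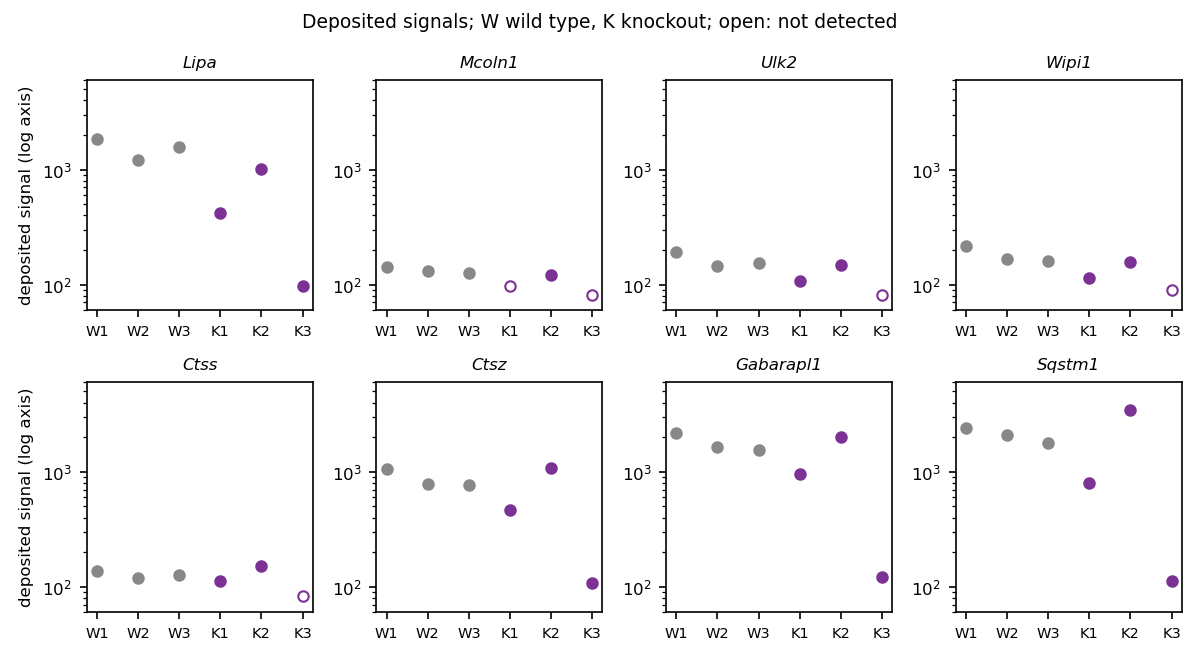
Deposited signals, before normalization and on a log axis, of 8 genes on all 6 arrays, with wild type in grey, knockout in purple and open circles for probes not detected. Every gene shown is lowest on knockout replicate 3, where Mcoln1, Ulk2, Wipi1 and Ctss are not detected. Mcoln1 is also not detected on knockout replicate 1.

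The calls depended on a single array. Without knockout replicate 2, when knockout replicate 1 is assumed to vary like the wild-type arrays, 4 of the 38 genes were called lower (9.81% of 9440 genes) and 2 higher (6%), shares near those of all genes. Uvrag (-0.79, adjusted p = 0.0189) and Ulk2 (-0.68, adjusted p = 0.0439) were then lower, and Gabarapl1 (0.65, adjusted p = 0.0318) and Ctsz (0.63, adjusted p = 0.0332) were higher. The other two, Mcoln1 (adjusted p = 0.00824) and Atg9a (adjusted p = 0.0225), were not detected on knockout replicate 1. Set at the lowest detected signal of that array in the normalization of 5 arrays, they were at least 0.85 and 0.47 below the wild-type mean on the log2 scale. With both knockout arrays 40 probes (0.279%) were called lower and 9 (0.0627%) higher of 14345. Without any other one of the 5 arrays 0 of the 38 genes were called, and 0 were called with all 6 arrays, in which no gene of the 10171 tested passed.

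The probes of a gene did not always point the same way. Of the 17 genes with more than 1 tested probe, 12 had estimates of the same sign at every probe, and 5 did not, namely Wipi1, Wipi2, Map1lc3a, Lamp2 and Scarb2. Of the 64 tested probes 35 were below 0 (54.7% of all probes), and at an unadjusted p under 0.05 there were 7 lower (background 7.47%), of which 3 were not detected on knockout replicate 1, and 1 higher (background 4.66%). The probe sequences were not used here, so that the transcripts each probe reads are not described.

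**Figure D5:**
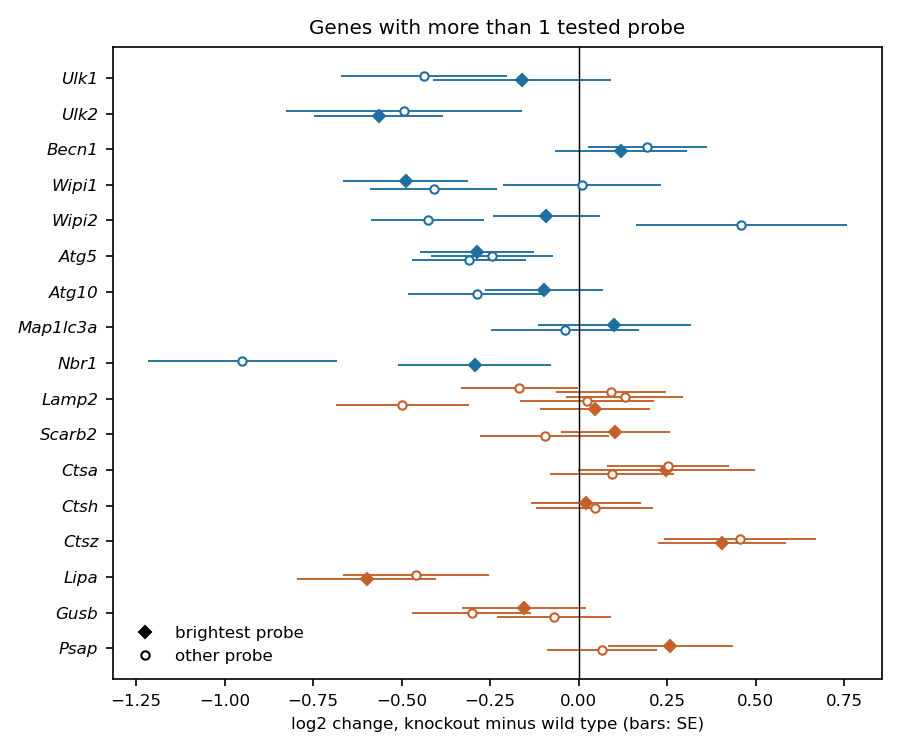
Log2 change, knockout minus wild type, at each tested probe of the 17 genes with more than 1, with filled diamonds for the brightest probe, open circles for the others and bars for the SE. The probes of Lipa and Ctsz lie close together, and those of Wipi2 and Lamp2 spread across 0.

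The wider pathway gave no called gene either. Of 34 other autophagy genes 29 were tested, with 0 called and a median of 0.03, and at an unadjusted p under 0.05 there were 2 lower (background 7.02%), Pik3r4 and Atg4d, and 0 higher (background 4.95%). The lowest was Pik3r4, the regulatory subunit that works with Pik3c3, which read 5.16, 5.15 and 5.42 in wild type and 4.23 and 4.60 in the knockout, a change of -0.83 ± 0.19 (adjusted p = 0.170). Both knockout arrays were below the wild-type arrays, and the probe was detected on 1 of the 3 knockout arrays, replicate 2. The level of 4.23 on knockout replicate 1 lay below the lowest detected level of that array, 4.94. The size of the fall on that array, and so of the change, is therefore not measured. Atg4d, a protease of the Atg4b family, was not detected on any knockout array, so that it was tested only through the wild-type arrays. With the knockout set at the lowest detected signal of each array, Atg4d was at least 0.00168 lower on the log2 scale. Its adjusted p of 0.392 (limma) came from the knockout signals as measured, which were not detected above background, and not from this bound. Of 38 other lysosomal hydrolases and their cofactors 31 were tested, with 0 called and a median of 0.02, and at an unadjusted p under 0.05 there were 2 higher (background 4.95%) and 0 lower (background 7.02%). The 2 were Pla2g15, a lysosomal phospholipase (0.42, adjusted p = 0.375), and Gm2a, the activator that works with Hexa (0.57, adjusted p = 0.392). Of 34 genes of the lysosomal membrane, proton pump and sorting machinery 30 were tested and 23 were above 0, with a median of 0.10 and 0 called. The 2 higher at an unadjusted p under 0.05 (background 4.95%) were Cd63, a membrane tetraspanin (0.54, adjusted p = 0.394), and Atp6v0b, a subunit of the proton pump (0.40, adjusted p = 0.411).

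Of 32 genes that sense nutrients upstream of autophagy 22 were tested, with 0 called and a median near 0, and at an unadjusted p under 0.05 there were 3 higher (background 4.95%) and 0 lower (background 7.02%). Ddit4, an inhibitor of the kinase complex mTORC1, read 5.14, 5.82 and 4.98 in wild type and 5.96 and 6.31 in the knockout, a change of 0.82 ± 0.26 (adjusted p = 0.324). Mlst8, a subunit of that complex, gave 0.61 (adjusted p = 0.345), and Lamtor1, which anchors it at the lysosome, gave 0.45 (adjusted p = 0.375).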

How the data were processed

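The authors deposited, for each array, an unnormalized bead intensity per probe on a linear scale and a detection p-value per probe, made with BeadStudio 3 per the submitters' processing notes. They also deposited a value table of the series, again linear intensity values, whose normalization the sources used here do not give; it was used as an alternative only. Its columns named for wild-type replicates 2 and 3 held the arrays of replicates 3 and 2, each within 0.00263 on the log2 scale. Older symbols were updated through RefSeq's gene table (GRCm38.p6), which left 9504 probes without a matched name.

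The 3 wild-type arrays and knockout replicates 1 and 2 were normalized together by neqc in limma 3.58.1 (R 4.3.3), with the negative controls estimated from detection p-values, an offset of 16 and quantile normalization to log2. A probe was kept if its detection p was below 0.05 on 3 or more of the 5 arrays. The fit (lmFit, eBayes) had genotype as its only term, p-values were two-sided and adjusted by Benjamini-Hochberg over the 14345 kept probes, and the threshold was 0.05. A gene was represented by its brightest kept probe. By rule, values on every array are given for members with an unadjusted p under 0.05, for the 2 members of each role with the smallest p, and for any called probe, and of each other pathway list the called genes or else the 2 with the smallest p are named. Lamtor1, Cd163 and Marco were named after their values were seen. The members and lists were chosen with earlier results of these data known.

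Replicates are separate mice, and their number limits the precision. The fit was tested before use on simulated data with the same number of arrays. It called 29 of 50 probes simulated at a log2 change of -1 and 33 of 50 at 1. The changed probes were drawn only from kept probes with a wild-type signal above 50 units, after normalization and without the offset. Dimmer probes, such as those of Mcoln1 and Atg9a, were not among them, so that recovery there was not measured. The simulated knockout arrays had the spread and background of the wild-type ones, so that the lower quality of knockout replicate 1 was not modelled. Alternatives covered the arrays used, the normalization, the filter, the variance model, array weights and a replicate block. The replicate numbers were not taken as pairs of mice. Figures were drawn with matplotlib 3.10.9.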

Additional observations from a re-analysis of the deposited data

How the results depend on the processing

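The estimates of Lipa, Ulk2, Wipi1, Uvrag, Map1lc3b, Nbr1, Atg5, Gabarap, Pik3c3, Atg3 and Atg10 kept their sign in 17 of 17 alternatives, and those of Mcoln1 and Atg4b in the 16 that tested them. Not all of these could differ, since the variance model cannot change a sign and the block on all 6 arrays repeats the estimates without it. Ctss read -0.14 with all 6 arrays with or without the replicate block and -0.034 under median scaling, but stayed above the median of all genes in each, by 0.11 and 0.41. The sign was opposite to the main one for 16 of 38 genes with all 6 arrays and for 17 of 38 under median scaling, under which all genes shifted by -0.24 and -0.43. Leaving out 1 array at a time, the genes called ranged from 0 to 2 higher and from 0 to 4 lower (both highest without knockout replicate 2, where 6% and 9.81% of all genes were called), the autophagy median from -0.16 to -0.088 and the lysosome median from 0.058 to 0.14. The probes called over the whole array then ranged from 1 to 787 higher and from 7 to 1447 lower, against 9 and 40 in the main analysis. The causes of these differences were not tested.

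The autophagy median, -0.14 in the main analysis, was -0.17 over all tested probes, -0.47 with all 6 arrays, -0.68 under median scaling, -0.10 with normexp and an offset of 50, -0.078 from the authors' value table and -0.11 with no filter. The lysosome median, 0.09 in the main analysis, was 0.056 over all tested probes, 0.057 from the value table, -0.17 with all 6 arrays and -0.59 under median scaling. The probes called higher and lower were 0 and 0 with all 6 arrays, 0 and 4 under median scaling, 29 and 80 with normexp, 15 and 61 from the value table, 0 and 1 with no filter, and 30 and 92 with trend and robust variances. Cyclic loess called 25 higher, the filter on every array 21 higher and array weights 26 lower.

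With the replicate number as a block, the lysosome median was 0.14 and 13 probes were called higher and 34 lower. With wild-type replicates 2 and 3 exchanged the block called 15 higher, and with all 6 arrays it called 0 and 0, with medians of -0.47 and -0.17. No member was called with a block. The deviations of same-numbered mice correlated at -0.05, -0.05 and 0.04 over all 6 arrays, and the numbers were not taken as pairs. This check cannot exclude pairing, because deviations within a group are tied to one another and knockout replicate 3 is included. A chip as a block was not run, since no chip is named in the file headers. Signals near background limit 11 of the tested probes, among them those of Mcoln1, Atg9a, Atg4b, Gabarapl2 and Ctsd and the dimmer ones of Nbr1 and Ulk2, and 2 knockout arrays limit all tests.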
